A study of Mus musculus with 10 samples.

Results

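The genes described here are 30 genes of the red cell and platelet lineages, followed in mouse spleen. Of these, 24 are erythroid and 6 belong to platelets and the megakaryocytes that shed them. They were chosen by gene symbol, with earlier results of these data known. On the array, 28 of the 30 had a probe set assigned to them alone, among 18193 genes that did. Ahsp, the haemoglobin chaperone gene, and Gp1ba, a platelet receptor gene, are not analysed here. The 28 genes had 41 probe sets, and each gene was represented by the probe set with its highest mean log2 signal over all arrays.

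The series held 3 groups of Affymetrix MOE430_2 arrays. Bulk splenocytes, taken at rest, gave 4 arrays from 2 biological samples with 2 chips each, and the labels do not say which chips belong together. Splenic natural killer (NK) cells, sorted as NK1.1+CD3- cells from wild type C57Bl/6 mice, gave 3 arrays after 24 h with 100 ng/mL of recombinant mouse IL-15 and 3 arrays of resting cells lysed at once. No strain is given for the splenocytes, and no age or sex for any group. Whether red cells were lysed in the splenocyte samples is not given in the sources used here. Splenocyte RNA went through 1 cycle of amplification and NK RNA through 2 cycles, so cell population and amplification cannot be told apart in any comparison between them. IL-15 and 24 h of culture cannot be told apart either, because no NK cells cultured without IL-15 were analysed here.

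Red cells are made from precursors under the transcription factors GATA1, TAL1 and KLF1, which act together at erythroid genes, and under erythropoietin, whose receptor keeps the precursors alive. The maturing cell switches on haem synthesis and iron import and builds a membrane in which the anion exchanger is tied to the spectrin skeleton by ankyrin, and it loses its nucleus last. In mice the red pulp of the spleen makes red cells and megakaryocytes throughout adult life, and it also stores platelets and clears old red cells. NK cells are lymphocytes of another branch of blood formation.

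Promoter sequence is shown first because nearly all of the genes were higher in splenocytes and Gata1 is itself among them. Whether GATA1 acts on them in these samples was not tested. RefSeq promoter windows of build GRCm38.p6, from 250 bases before to 50 bases after the gene start, were found for 16 of the erythroid and all 6 platelet genes. The GATA motif was searched as AGATAA or TGATAA on both strands. It was present in the windows of 12 of the 16 erythroid genes, namely Alas2, Epor, Ermap, Gfi1b, Hemgn, Icam4, Kel, Klf1, Rhag, Rhd, Tal1 and Trim10. Among all genes in the promoter table, 21.0% had it. It was also in 2 of the 6 platelet windows, those of Gp1ba and Pf4.

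Stretches of 70 bases before the gene start are given below for 6 of these erythroid genes, 5′ to 3′ on the gene's strand, with GATA motifs in capitals. A motif on the other strand reads TTATCT or TTATCA. Alas2 is at chrX:150547301-150547370 on the plus strand, Klf1 at chr8:84901872-84901941 on the plus strand and Epor at chr9:21963591-21963660 on the minus strand. Rhd is at chr4:134864463-134864532 on the plus strand, Kel at chr6:41704326-41704395 on the minus strand and Hemgn at chr4:46404184-46404253 on the minus strand.
Alas2: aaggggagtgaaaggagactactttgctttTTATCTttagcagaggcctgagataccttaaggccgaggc
Klf1: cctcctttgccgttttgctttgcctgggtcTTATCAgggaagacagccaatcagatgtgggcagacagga
Epor: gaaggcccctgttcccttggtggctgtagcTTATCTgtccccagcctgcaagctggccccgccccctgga
Rhd: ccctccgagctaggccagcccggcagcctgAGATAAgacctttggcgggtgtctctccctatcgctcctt
Kel: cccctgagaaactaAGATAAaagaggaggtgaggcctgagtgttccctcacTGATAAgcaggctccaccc
Hemgn: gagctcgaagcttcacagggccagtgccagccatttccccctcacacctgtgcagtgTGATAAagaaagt

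The motif began 86 bases before the start of Alas2, 80 before that of Klf1, 54 before that of Epor, 43 before that of Rhd and 13 before that of Hemgn. Kel had a pair of them, at 56 and 19 bases. Other short motifs were searched in the same windows. CACCC, a core of the sequence that KLF factors bind, was in 13 of 16 erythroid and 3 of 6 platelet windows, against 59.8% of all genes. GGAAGT, a core of ETS factor sites, was in 1 of 16 erythroid windows, that of Ermap, and in 4 of 6 platelet windows, those of Gp9, Itga2b, Pf4 and Ppbp, against 26.5% of all genes. TGAGTCA, the core shared by NF-E2 and AP-1 sites, was in the windows of Kel and Trim10 and in none of the platelet windows, against 5.95% of all genes. These matches describe letters in a window and show no binding.

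Signals are the linear intensities that the authors deposited, which had been scaled so that every array had a trimmed mean of 1500. Values at or below 179.85, the floor, have no order and were set to it. Every array held 45101 signals, and the share above the floor was 61.2% to 62.4% on splenocyte, 51.1% to 56.5% on IL-15-treated NK and 57.8% to 61.7% on resting NK arrays. RNA or labelling quality also differed by group, with the 3-prime signal of the Gapdh control 1 to 1.39 times its 5-prime signal on splenocyte arrays, 2.9 to 3.81 times on IL-15-treated NK and 5.88 to 9.54 times on resting NK arrays. For the Actb control the ratios were 1.34 to 1.59, 1.28 to 1.49 and 2.27 to 6.51, so that there resting NK arrays alone stood apart. The part of these ratios in the results below was not tested. All 9 measured NK markers were lower in splenocytes than in either NK group. Of all tested genes, 20.8% were lower than in IL-15-treated NK cells and 17.1% than in resting NK cells. Resting NK arrays also held signal of B-cell and macrophage markers, given below. Of 8 defining erythroid markers 5 had a probe set, of these Alas2, Slc4a1, Klf1 and Epor were above the floor on all splenocyte arrays and Hba-a1 was at the floor on all 10 arrays. Probe sets with several gene symbols were left out, so any that Hba-a1 shares with another globin gene was not read.

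Splenocytes carried a strong erythroid signal that NK cells largely lacked. All 23 measured erythroid genes were called higher by limma in splenocytes than in IL-15-treated NK cells and than in resting NK cells. Of markers of other splenic cells, 11 of 11 B-cell and 9 of 9 neutrophil markers were also called higher against both NK groups. For 10 T-cell markers 8 were called higher against each NK group. The median log2 difference of the 23 erythroid genes was 5.26 against IL-15-treated NK cells and 5.33 against resting NK cells. Of all genes tested, 23.5% were higher in splenocytes than in IL-15-treated NK cells, with a median difference of 0.10. Against resting NK cells 21.5% were higher, with a median of 0.06 (limma, threshold adjusted p of 0.05). None of the 28 genes was lower in splenocytes, where 20.8% and 17.1% of tested genes were lower than in IL-15-treated NK and resting NK cells. A gene high on all splenocyte arrays enters the test by that alone, and 6 of the 28 were at the floor on all 6 NK arrays. Folds against a group with any array at the floor are lower bounds. Fewer cells of a type and less RNA per cell cannot be told apart in such samples.

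**Figure D1:**
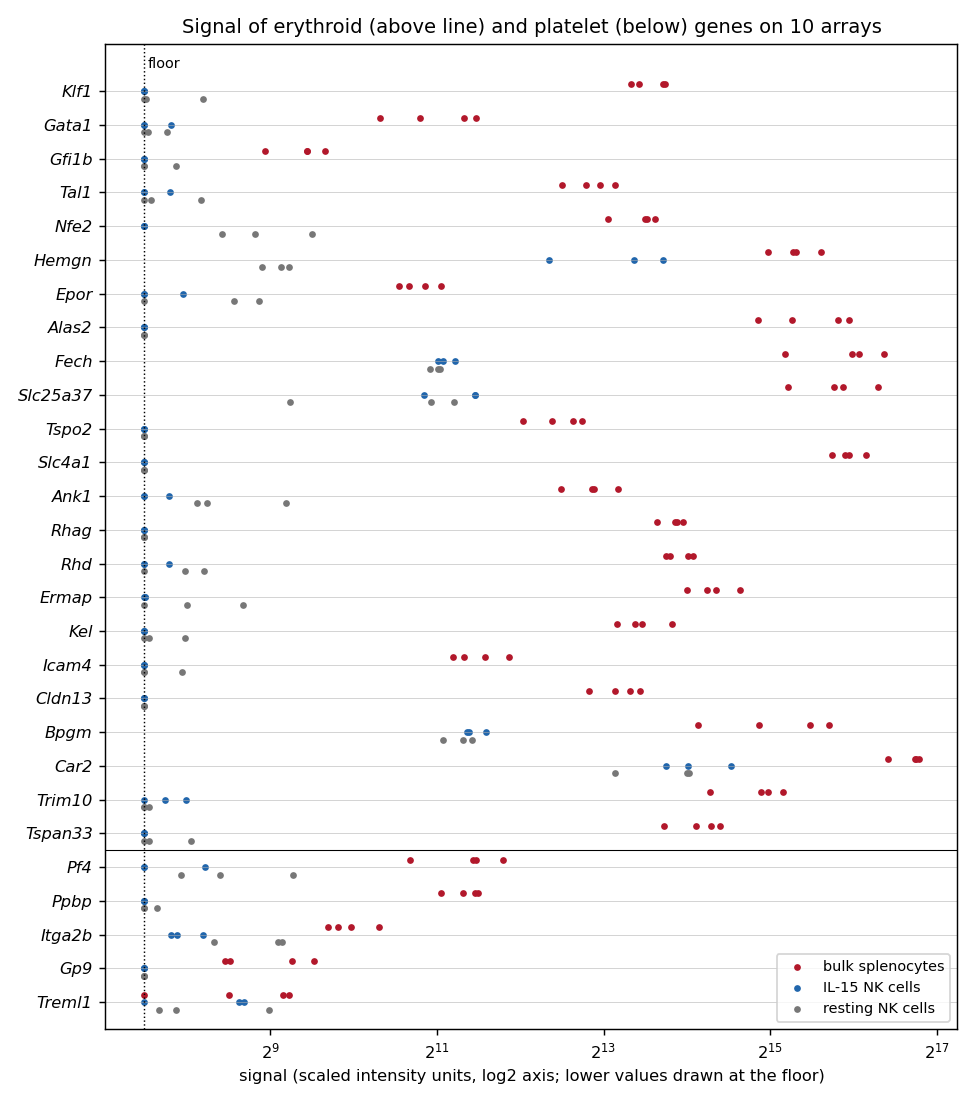
Signal of each of the 28 genes on the 10 arrays (x axis, intensity on a log2 axis, values under the floor drawn at the dotted line), 1 row per gene, red for splenocytes, blue for IL-15-treated NK and grey for resting NK cells, each dot 1 array. The splenocyte dots of all 23 erythroid genes lie to the right of every NK dot, a separation that was not counted over all genes. Hemgn is the gene whose blue dots stand far from its grey dots.

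Among the transcription factor genes, Klf1, the erythroid Krüppel-like factor, had signals of 13449, 10284, 11033 and 13623 on the splenocyte arrays. It was at the floor on all 3 IL-15-treated NK arrays and at 292, 182 and below the floor on the resting NK arrays. Klf1 was at least 66.8-fold higher in splenocytes than in IL-15-treated NK cells (log2 difference 6.06 ± 0.27 SE, limma adjusted p = 2.8e-06). Against resting NK cells it was at least 56.5-fold higher (log2 difference 5.82 ± 0.28 SE, limma adjusted p = 3.9e-06). No splenocyte array came near an NK array.

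Gata1, the master regulator of the erythroid and megakaryocytic lineages, had 2558, 1779, 1281 and 2844 signal units on splenocyte arrays. On IL-15-treated NK arrays 1 value, 226, lay above the floor, and on resting NK arrays the values 186 and 218 did. The difference was at least 10.4-fold against either NK group (limma adjusted p = 3.8e-05 against IL-15-treated NK and 4.4e-05 against resting NK). Tal1, a partner of GATA1 in the same complex, was at least 38.2-fold higher than in IL-15-treated NK and at least 34.3-fold higher than in resting NK cells. Gfi1b, a repressor needed by both lineages, showed the smallest bounds of these factors, at least 3.69-fold and at least 3.38-fold, with splenocyte signals of 490 to 811. Gata1 and Gfi1b are also used by mast cells, basophils and eosinophils. Of 8 markers of those cells 5 were higher in splenocytes than in each NK group. Against IL-15-treated NK and resting NK cells 23.5% and 21.5% of all tested genes were higher. Summed signals of the 8 markers were 2516 to 7456 on splenocyte arrays, 208 to 569 on IL-15-treated NK and 825 to 1076 on resting NK arrays. The part of those cells in the signal of these 2 factors was not tested.

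Nfe2, the haematopoietic subunit of the NF-E2 factor, which acts in red cell precursors and in megakaryocytes, had 11574, 8538, 11742 and 12592 signal units in splenocytes. It was below the floor on all IL-15-treated NK arrays and at 342, 723 and 452 on resting NK arrays. Splenocytes exceeded IL-15-treated NK cells at least 61.1-fold (limma adjusted p = 6.4e-06) and resting NK cells 22.8-fold (limma adjusted p = 2.5e-05). Epor, which encodes the erythropoietin receptor, had 1620, 1856, 1496 and 2125 in splenocytes, was above the floor on 1 IL-15-treated NK array at 248 and on 2 resting NK arrays at 380 and 467, and its bounds were 8.79-fold and 5.54-fold (limma adjusted p = 0.00045 and 0.0017).

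The haem and iron genes showed large differences. Alas2 encodes the erythroid form of the enzyme that begins haem synthesis. Its signals were 39114, 29708, 57462 and 62933 on splenocyte arrays, and all 6 NK arrays were below the floor. The difference from each NK group was therefore at least 252-fold (log2 difference 7.98 ± 0.28 SE for both, limma adjusted p = 1.9e-06 for both). Tspo2, an erythroid protein related to the mitochondrial translocator, was likewise at the floor on every NK array and at 4195 to 6843 in splenocytes, at least 31-fold higher than in either NK group. Fech, the enzyme that puts iron into haem, and Slc25a37, mitoferrin 1, which carries iron into mitochondria, differed in that they were above the floor on every NK array. Fech was 27.8-fold higher in splenocytes than in IL-15-treated NK cells and 29.9-fold higher than in resting NK cells. Slc25a37 was 23.1-fold and 40.1-fold higher (limma adjusted p = 0.00029 and 0.00014).

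The 8 membrane and blood group genes were all higher in splenocytes. Slc4a1, band 3, the anion exchanger of the red cell, had 60949, 72815, 63004 and 54579.5 signal units in splenocytes and was below the floor on all NK arrays. Its difference from each NK group was at least 348-fold (log2 difference 8.44 ± 0.21 SE for both, limma adjusted p = 1.0e-06 against IL-15-treated NK and 1.1e-06 against resting NK). This was the largest bound among the 28 genes, and a second probe set gave a log2 difference of 8.26 against each group. The remaining, dimmer probe set of Slc4a1 gave 1.92.

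Rhag, the Rh-associated ammonia channel, had 15889.9, 12816, 15057 and 14873 in splenocytes and no NK array above the floor, a difference of at least 81.3-fold from each NK group (limma adjusted p = 1.9e-06 for both). Cldn13, a mouse claudin found on red cell precursors, was also at the floor on all NK arrays and at least 51.7-fold higher. Rhd, which carries the Rh antigen, was at least 79.5-fold higher than in IL-15-treated NK and at least 64.3-fold higher than in resting NK cells. Ermap, the Scianna blood group protein, was at least 112-fold and at least 76.3-fold higher, and Kel, the Kell blood group endopeptidase, at least 62.5-fold and at least 55-fold. Icam4, the Landsteiner-Wiener adhesion protein, showed the smallest bounds of the membrane genes, at least 16-fold and at least 14.4-fold. Ank1, the red cell ankyrin, had 7564, 7437, 5754 and 9219 in splenocytes, 1 IL-15-treated NK array above the floor at 222, and 280, 587 and 302.5 on resting NK arrays. It was at least 38.3-fold and 20.1-fold higher in splenocytes. Of its 3 other probe sets, 1 made the same call against both NK groups, and 1 did so against IL-15-treated NK cells and missed the threshold against resting NK cells (adjusted p = 0.13). The remaining 1 pointed the other way against resting NK cells without passing (log2 difference -0.31, adjusted p = 0.34). It was too dim to test against IL-15-treated NK cells.

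The last erythroid genes include enzymes that other cells also use. Trim10, a ubiquitin ligase of terminal erythroid cells, had 30423, 19865, 32062 and 36473 in splenocytes, 2 IL-15-treated NK arrays above the floor at 214 and 255, and 1 resting NK array at 187. It was at least 135-fold higher than in IL-15-treated NK and at least 159-fold higher than in resting NK cells (limma adjusted p = 1.9e-06 for both). Tspan33, a tetraspanin of erythroid progenitors that activated B cells also carry, was at least 99.9-fold and at least 86.4-fold higher, and its 3 other probe sets made the same calls.

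Bpgm, which makes the 2,3-bisphosphoglycerate that loosens haemoglobin's hold on oxygen, had 29744, 18023.5, 45616 and 53572 in splenocytes. Its signals were 2623, 2682 and 3079 on IL-15-treated NK and 2156, 2557 and 2747 on resting NK arrays. Splenocytes were 12.1-fold above IL-15-treated NK and 13.7-fold above resting NK cells (limma adjusted p = 3.3e-05 and 2.7e-05). These are log2 differences of 3.60 and 3.77 on the probe set used here. Other probe sets of Bpgm gave larger ones, 4.06 and 5.94 against IL-15-treated NK and 4.53 and 5.66 against resting NK cells. Car2, carbonic anhydrase 2, had 112561, 87227, 108711.5 and 110059 in splenocytes, 13802, 23628 and 16589.9 on IL-15-treated NK and 16426, 16669 and 8981 on resting NK arrays. It was 5.93-fold and 7.71-fold higher in splenocytes (limma adjusted p = 0.00038 and 0.00021).

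**Figure D2:**
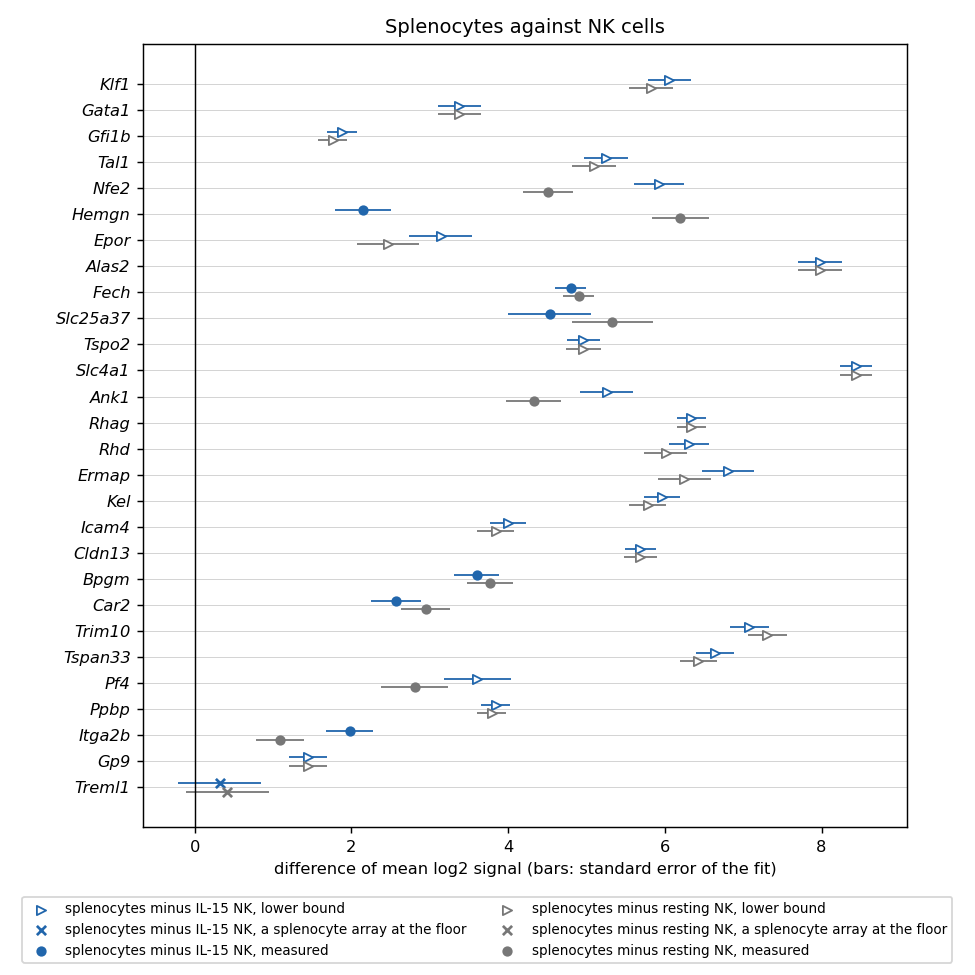
Difference of mean log2 signal between splenocytes and IL-15-treated NK cells (blue) and between splenocytes and resting NK cells (grey) for each of the 28 genes, with the standard error of the limma fit as bars. Open triangles are lower bounds, which reach 8.44 for Slc4a1, and filled circles are differences measured on both sides. Crosses mark Treml1, at 0.32 and 0.42, for which a splenocyte array was at the floor, so that its differences are neither measured nor bounds.

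Of the 5 platelet genes measured, 4 were higher in splenocytes than in each NK group, and Treml1 did not pass. Of all tested genes 23.5% were higher than in IL-15-treated NK and 21.5% than in resting NK cells. The median log2 differences of the 5 platelet genes were 1.98 against IL-15-treated NK and 1.45 against resting NK cells. A lower bound cannot exceed the splenocyte signal over the floor, so those of dim genes such as Gp9 are small by construction. Pf4, platelet factor 4, a chemokine of the alpha granules, had 2850, 1644, 2769 and 3552 in splenocytes, 1 IL-15-treated NK array above the floor at 299, and 621, 337 and 244 on resting NK arrays. It was at least 12.2-fold higher in splenocytes than in IL-15-treated NK (limma adjusted p = 0.00028) and 7.02-fold higher than in resting NK cells (limma adjusted p = 0.0012). Ppbp, the precursor of beta-thromboglobulin and another alpha granule chemokine, had 2555, 2115, 2806 and 2896 in splenocytes. Of the NK arrays, 1 resting array was above the floor, at 201, and the bounds were 14.3-fold and 13.8-fold (limma adjusted p = 3.1e-06 and 4.0e-06).

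The receptor genes of platelets were dim. Itga2b, integrin alpha IIb, which binds fibrinogen, had 832, 899.6, 1001 and 1264.5 in splenocytes, 236.5, 225 and 292 on IL-15-treated NK and 548, 566 and 322 on resting NK arrays. It was 3.95-fold higher in splenocytes than in IL-15-treated NK cells (limma adjusted p = 0.00095). Against resting NK cells it was 2.13-fold higher (limma adjusted p = 0.022). That last call was lost in 4 alternatives, with adjusted p from 0.052 to 0.068. Gp9, a chain of the receptor for von Willebrand factor, had 367, 353, 615 and 736 in splenocytes and no NK array above the floor. Its bound was 2.74-fold against both NK groups (limma adjusted p = 0.0014 against IL-15-treated and 0.0016 against resting NK cells). Treml1, a receptor of platelet alpha granules, was below the floor on splenocyte array 1 and at 365, 571 and 599.8 on the others. It overlapped with both NK groups, at 397 and 413 on 2 IL-15-treated NK arrays and 204, 234 and 509.6 on resting NK arrays (limma adjusted p = 0.65 and 0.58).

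After IL-15, most of the genes showed no call. Of the 28 genes, 16 were above the floor on at least 3 NK arrays and could be tested between IL-15-treated NK and resting NK cells. Of these, 1 rose, where 14.2% of all tested genes did, and 1 fell, where 12.1% did, and 14 did not pass. The median log2 difference of all genes tested was -0.09.

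Hemgn rose. It encodes hemogen, a nuclear protein of haematopoietic progenitors and red cell precursors. Its signals were 49838, 32208, 39478 and 40547 in splenocytes, 13437, 5205 and 10530.2 on IL-15-treated NK arrays and 561, 598 and 479 on resting NK arrays. The 3 groups did not overlap. Hemgn was 16.6-fold higher in IL-15-treated NK than in resting NK cells, with mean log2 signals of 13.14 ± 0.71 and 9.09 ± 0.16 (SD, n = 3 arrays each; log2 difference 4.05 ± 0.33 SE, limma adjusted p = 3.9e-05). Over 15 alternatives the difference was 3.77 to 4.45 and passed in each, with adjusted p from 1.0e-06 to 0.012. As a share of the splenocyte mean, Hemgn stood at 33.6%, 13% and 26.3% on IL-15-treated NK arrays and at 1.4%, 1.49% and 1.2% on resting NK arrays. Alas2, Slc4a1, Rhag, Cldn13 and Tspo2 were at the floor on every NK array of both groups, and Klf1, Gfi1b, Kel, Icam4 and Tspan33 on every IL-15-treated NK array. Splenocytes exceeded IL-15-treated NK cells in Hemgn by 4.43-fold (limma adjusted p = 0.0018) and resting NK cells by 73.6-fold (limma adjusted p = 1.0e-05).

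Nfe2 fell. Below the floor on all IL-15-treated NK arrays, it was at least 2.68-fold lower than in resting NK cells (log2 difference -1.42 ± 0.31 SE, limma adjusted p = 0.0078). Nfe2 entered the test through the resting NK arrays alone, and a gene at the floor in the other group can only fall. When no filter on dim genes was used, it no longer passed (limma adjusted p = 0.056). Without any 1 of the 3 resting NK arrays it was above the floor on too few arrays for a test. Markers of other splenic cells were also lower in IL-15-treated NK cells. Of 8 macrophage and monocyte markers tested 7 fell and of 7 B-cell markers tested 5 fell, where 12.1% of all tested genes fell. Over the 11 markers of each list on the array, the median log2 differences were -1.88 and -1.81. Summed over the list, macrophage markers reached 1261 to 2032 on IL-15-treated NK and 7260 to 30262 on resting NK arrays, and C1qa and Fcgr1 were at the floor in both groups. B-cell markers reached 1408 to 2187 and 3516 to 33200, and Cd79a, Cr2, Ebf1, Fcrla and Ms4a1 were at the floor on all IL-15-treated NK arrays. Their part in the difference of Nfe2 was not tested.

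Besides Hemgn, the genes Fech, Slc25a37, Bpgm, Car2 and Itga2b were above the floor on every NK array, and none of these differed between the NK groups past the threshold. Fech had 2062, 2150 and 2377 on IL-15-treated NK arrays and 2106.5, 1941 and 2076 on resting NK arrays (log2 difference 0.10 ± 0.21 SE, limma adjusted p = 0.75). Those signals were 3.39% to 3.9% and 3.19% to 3.46% of the splenocyte mean. On the probe set used here, Bpgm stood at 7.75% to 9.1% and 6.37% to 8.12% (log2 difference 0.17 ± 0.21 SE, limma adjusted p = 0.58). On these probe sets both enzymes had a narrow range over the 6 NK arrays. Other probe sets of Fech gave log2 differences of 0.68 (adjusted p = 0.18) and -0.66 (adjusted p = 0.099). The last had 630, 859 and 803 on IL-15-treated NK and 1224, 1277 and 1102.5 on resting NK arrays, without overlap. Other probe sets of Bpgm gave 0.46 and -0.28, and none of these passed. Slc25a37 ranged more, with 2816, 1836 and 2823 on IL-15-treated NK arrays and 1959, 605 and 2358.5 on resting NK arrays (log2 difference 0.79 ± 0.46 SE, limma adjusted p = 0.23). Car2 stood at 13.3% to 22.7% of the splenocyte mean on IL-15-treated NK and 8.63% to 16% on resting NK arrays (log2 difference 0.38 ± 0.28 SE, limma adjusted p = 0.35). Itga2b differed by -0.89 ± 0.31 SE without overlap and did not pass (limma adjusted p = 0.055). It passed in 3 alternatives, with adjusted p from 0.023 to 0.041. Ank1, at -0.93 ± 0.32 SE without overlap, did not pass either (limma adjusted p = 0.059).

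**Figure D3:**
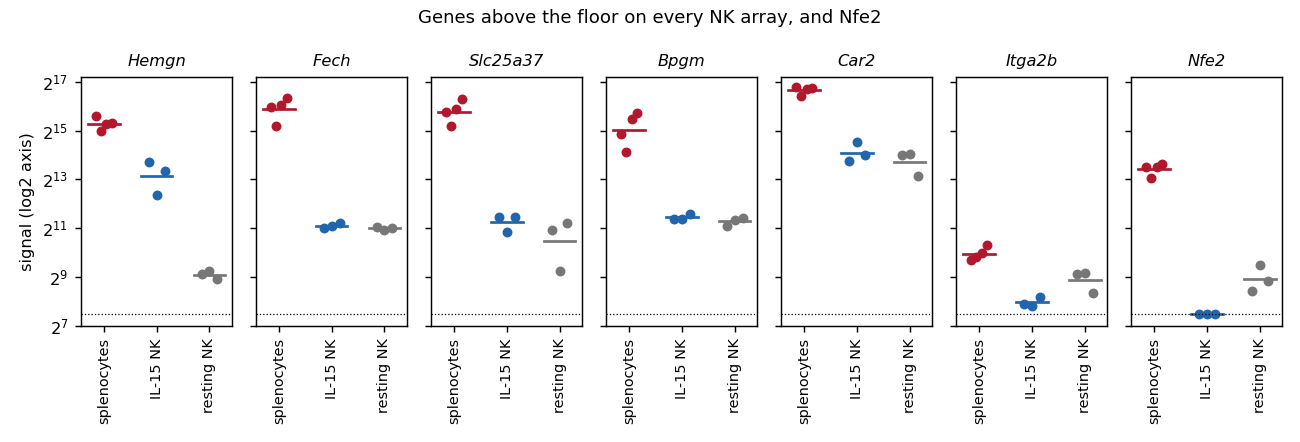
Signal on each array (dots, log2 axis) and mean of log2 signals (bars) in splenocytes, IL-15-treated NK and resting NK cells for the 6 genes above the floor on every NK array and for Nfe2, with the floor as a dotted line. Hemgn steps down across the 3 groups, Nfe2 is at the floor in IL-15-treated NK cells, and the NK groups of Fech, Bpgm and Car2 overlap.

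Values just above the floor also came from genes that blood cells are not known to use. For 18 genes of unrelated tissues, such as Ins2, an insulin gene, and Opn1sw, a cone opsin gene, 29.2% of values lay above the floor on splenocyte arrays, 18.5% on IL-15-treated NK and 38.9% on resting NK arrays. Ins2 was above the floor on some NK arrays, and Opn1sw was at the floor on all 10 arrays. By array, all 23 erythroid genes were above the floor on each splenocyte array, 9, 5 and 10 on IL-15-treated NK and 14, 12 and 14 on resting NK arrays. These counts include 5 genes above the floor on all 6 NK arrays. For the other 18, the share of values above the floor was 100% on splenocyte, 16.7% on IL-15-treated NK and 46.3% on resting NK arrays.

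Set against splenocytes, the erythroid genes had a low share on every NK array, and much of that share is the floor itself. The median over 23 genes was 2.43%, 2.43% and 3% of the splenocyte mean on IL-15-treated NK arrays 1, 2 and 3 and 3.11%, 1.94% and 2.58% on resting NK arrays 1, 2 and 3. For 11 B-cell markers it was 1.46%, 1.32% and 1.59% on IL-15-treated NK and 12%, 11.9% and 2.05% on resting NK arrays. For 11 macrophage markers it was 2.74% to 2.95% and 4.57% to 10.8%, for 9 neutrophil markers 2.79% and 2.79% to 5.04%, and for 10 T-cell markers 6.26% to 9.97% and 5.64% to 11.5%. The B-cell share on resting replicates 1 and 2 was thus several times that on replicate 3, and the erythroid share did not show this step. For the platelet genes above the floor on all splenocyte arrays, 4 in number, the median was 12.9% to 16.2% on IL-15-treated NK and 17.5% to 29.5% on resting NK arrays. All these medians are upper bounds where genes lie at the floor.

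**Figure D4:**
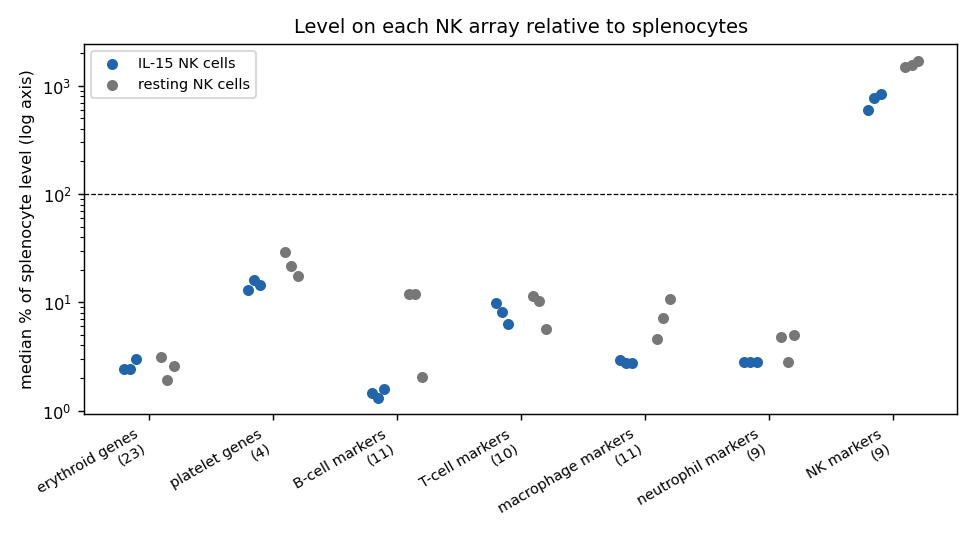
Median level of each gene list on every NK array as a percent of its mean level in splenocytes (log axis, dashed line at 100%), blue for IL-15-treated NK and grey for resting NK cells, with the number of genes in brackets. The 23 erythroid genes lie between 1.94% and 3.11%, while B-cell markers reach 12% on 2 resting NK arrays and NK markers lie far above 100%.

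The splenocyte arrays differed from each other in erythroid signal. Array 2 was the lowest for 19 of 23 erythroid genes and array 4 the highest for 17. Over the 10591 genes above the floor on all 4 splenocyte arrays, array 2 was the lowest for 26.5% and array 4 the highest for 36.1%. Arrays 1 to 4 deviated from each gene's mean by a median of 0.07, -0.31, 0.01 and 0.29 log2 units over the erythroid genes and by -0.01, -0.01, -0.01 and 0.05 over all genes. Among 28 other erythroid genes array 2 was the lowest for 19, and array 4 the highest for 18. Other lists shared the order in part. Medians on arrays 2 and 4 were -0.38 and 0.40 for 4 platelet genes, -0.28 and 0.26 for 9 neutrophil markers and -0.16 and 0.21 for 9 NK markers. For 11 B-cell markers they were 0.08 and -0.16, with array 4 the lowest for 8.

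The spread was uneven among the erythroid genes. It exceeded 1 log2 unit for 5 of the 23, namely Bpgm at 1.57, Fech at 1.19, Gata1 at 1.15, Alas2 at 1.08 and Slc25a37 at 1.08. For the haem and oxygen genes Alas2, Fech, Slc25a37 and Bpgm, arrays 3 and 4 were both above arrays 1 and 2. The same order held for Tspo2, Kel, Trim10, Tspan33, Nfe2 and Gfi1b, so it was not particular to those genes. For Gata1, array 3 was instead the lowest. By contrast the spread was 0.31 for Rhag, 0.32 for Rhd, 0.37 for Car2 and 0.41 for Klf1, and its median over all genes was 0.45. For each of the 27 genes called higher in splenocytes, both differences from NK cells exceeded that gene's own range over the splenocyte arrays. For Slc4a1, array 2 was the highest on the probe set used here, at 72815, and the lowest on a second bright probe set, with 54233, 42585, 56930.0 and 69652 on arrays 1 to 4.

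**Figure D5:**
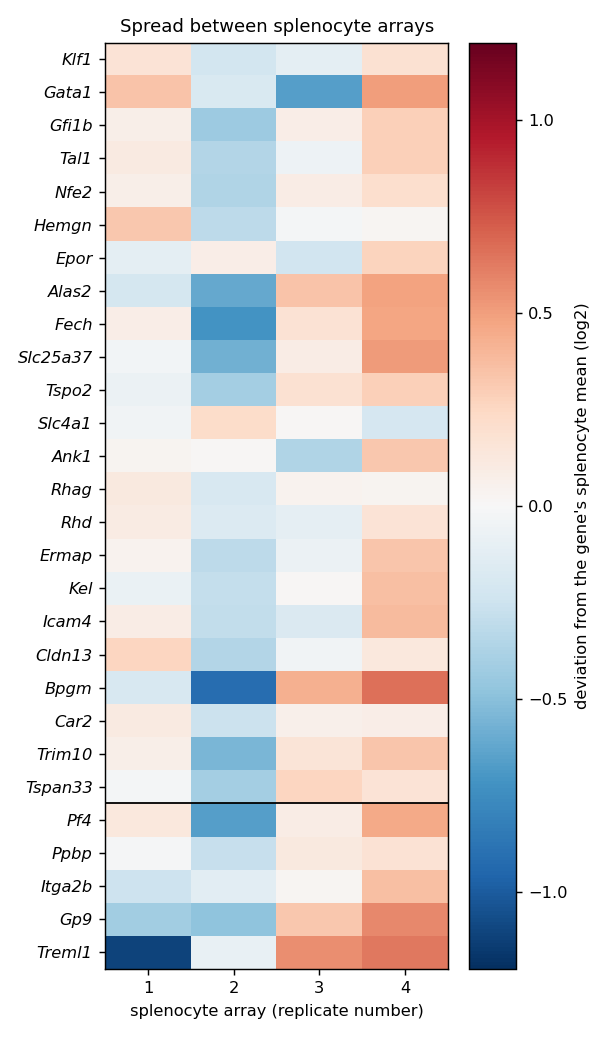
Deviation of each splenocyte array from the gene's mean over the 4 splenocyte arrays (colour, log2 units) for the 28 genes, erythroid above and platelet below the line. Array 2 is blue for most erythroid genes, with a median of -0.31, and array 4 red, with a median of 0.29.

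Other genes of these lineages were read from lists that do not include the 30. Of 42 further erythroid symbols 31 were on the array. Of 29 tested, 25 were higher in splenocytes than in IL-15-treated NK cells and none lower, and 22 were higher than in resting NK cells and 1 lower. Of all tested genes 23.5% and 21.5% were higher against these 2 groups, and 20.8% and 17.1% lower. Aqp1, the red cell water channel, was at least 96.5-fold higher than in IL-15-treated NK and at least 92.1-fold higher than in resting NK cells. Tmcc2 showed at least 149-fold and 78.1-fold, and Blvrb, a biliverdin reductase abundant in red cells, at least 93.9-fold and at least 60-fold. Hba-a2, an alpha globin gene, was at most 493 on any splenocyte array and at least 2.23-fold lower in splenocytes than in resting NK cells (log2 difference -1.16, limma adjusted p = 0.040). The globin genes are near-identical copies, so which copy a probe set reads is uncertain. Probe sets with several gene symbols were left out, so any shared between globin copies was not read. The values of Hba-a1 and Hba-a2 therefore do not give the level of alpha globin. Hbb-b2, a beta globin gene, was at 5095 to 11350 in splenocytes and below the floor on all NK arrays. Between IL-15-treated NK cells and resting NK cells 23 of these genes were tested, of which 1 rose and 5 fell, where 14.2% and 12.1% of all tested genes did. The gene that rose was Tfrc, the transferrin receptor that takes up iron, by 10.2-fold (log2 difference 3.35, limma adjusted p = 1.5e-05). Those that fell were Lmo2 and Lyl1, partners of TAL1, with Hba-a2, the urea transporter gene Slc14a1 and Mkrn1. Lmo2 was below the floor on all IL-15-treated NK arrays and at 1597, 1213 and 223 on resting NK arrays, and Lyl1 likewise, with 766, 1031 and 312. Both were thus highest on resting NK arrays 1 and 2, where B-cell markers were highest too, and the part of B cells and macrophages in their difference was not tested.

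The general haem pathway differed less than the erythroid enzymes. Of 10 further haem synthesis and transport genes, 6 were higher in splenocytes than in IL-15-treated NK cells and 1 lower, and all 10 were higher than in resting NK cells, with median log2 differences of 1.22 and 1.65. The shares of all tested genes that were higher were 23.5% and 21.5%, and 20.8% were lower than in IL-15-treated NK cells. Urod, uroporphyrinogen decarboxylase, differed by 2.46 and 2.31, and Uros, uroporphyrinogen synthase, by 2.30 and 2.21. Abcb10, a mitochondrial transporter that works with mitoferrin, differed by 1.92 and 2.12. Alas1, the form of Alas2 that all cells use, differed by -0.07 from IL-15-treated NK cells and did not pass (limma adjusted p = 0.79), and by 0.53 from resting NK cells (limma adjusted p = 0.046). In IL-15-treated NK cells against resting NK cells 2 of the 10 rose, where 14.2% of all tested genes did. They were Tmem14c, a mitochondrial porphyrin transporter, by 1.60 and Abcb6, a porphyrin transporter, by 1.58.

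Of 25 further platelet and megakaryocyte genes tested, 13 were higher in splenocytes than in IL-15-treated NK cells and 5 lower, and 11 were higher than in resting NK cells and 6 lower. Of all tested genes, 23.5% were higher and 20.8% lower against IL-15-treated NK cells. Against resting NK cells 21.5% were higher and 17.1% lower. Clec1b, the platelet receptor CLEC-2, was at least 12.1-fold and 8.06-fold higher. F13a1, coagulation factor XIII A, was at least 9.31-fold and 6-fold higher, and Tubb1, the tubulin of platelets, at least 6.42-fold and at least 5.86-fold. F2r, the thrombin receptor PAR1, ran the opposite way, with 3335 to 4396 in splenocytes, 53587 to 70462 in IL-15-treated NK and 53143 to 75213.5 in resting NK cells, log2 differences of -4.05 and -4.06 (limma adjusted p = 3.8e-06 and 4.2e-06).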

How the data were processed

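Each array's file holds a linear intensity for every probe set, as the authors deposited it. The submitters' processing notes name GCOS 1.4, and which summary algorithm was used is not given in the sources used here. The 10 arrays shared a mean of 1500 after trimming 2% at each end, so no scaling was added. The floor was the median over arrays of each array's 40th percentile. Of 45101 probe sets, 64 were controls, 932 had several gene symbols in GEO's platform annotation and 34945 had 1, for 18193 genes. Log2 values were compared in R 4.3.3 by limma 3.58.1, using lmFit and eBayes with a trend on intensity. Tests were two-sided with Benjamini-Hochberg adjustment over all genes tested, which were those exceeding the floor in 3 or more of the arrays being compared. The 6 NK arrays were fitted alone for the effect of IL-15. In splenocyte comparisons the 3 groups shared 1 variance, the 4 chips were averaged in pairs under each of 3 pairings, and the largest p was kept. The fits were also run on simulated data with independent arrays and no floor. That run does not cover repeat chips of 1 sample or genes at the floor. Nothing in the labels says that NK replicates came from separate animals, so p-values measure the spread between arrays, which may be technical, and splenocyte SDs include repeat chips. The alternatives were other floors and filters, quantile normalization, single probe sets, other variance models and leaving out arrays. The members and lists were chosen with earlier results of these data known, and all 28 measured members are named. From the further erythroid, haem and platelet lists the text names up to 3 genes with the largest differences past the threshold against resting NK cells. The gene with the smallest is named too. From the marker lists, C1qa, Fcgr1, Cd79a, Cr2, Ebf1, Fcrla, Ms4a1 and Hba-a1 are named for being at the floor. Ins2 and Opn1sw are named as examples of their list. Beyond this rule Hbb-b2, Tfrc, Lmo2, Lyl1, Slc14a1, Mkrn1, Tmem14c, Abcb6, Gp1bb, Cd9, Flt3, Kit and Cd34 were chosen after their values were seen.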

Additional observations from a re-analysis of the deposited data

Results flagged for a closer look

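Car2 was set apart by 1 array. Of its signals on the 4 splenocyte arrays, 112561, 87227, 108711.5 and 110059, that of array 2 lay far below the others, with a gap to the nearest of 0.864 of the whole log2 range, above Dixon's critical value for 4 values. The difference over all 4 arrays was only 0.37 log2 units. Of 28 genes looked at in this way 1 met the criterion. Chance gives about 1 in 20 for 4 independent values. These arrays are 2 samples with 2 chips each and the genes vary together, so that rate need not hold here.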

How the results depend on the processing

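With 1 probe set per gene, all 23 erythroid genes stayed higher in splenocytes than in both NK groups under every alternative in which they were tested. Over all members and comparisons, again with 1 probe set per gene, 1253 values kept their direction and side of the threshold, 7 newly passed, 5 no longer passed and 0 reversed. Of the other probe sets of Ank1, 2 did not pass against resting NK cells, and 1 of these had the opposite sign (log2 difference -0.31, limma adjusted p = 0.34). Beside Nfe2 and Itga2b, described above, Ank1 newly passed with the replicate block (adjusted p = 0.048) and with 1 variance for all 3 groups (0.044), and Epor without resting NK replicate 2 (log2 difference -1.07, adjusted p = 0.026). The difference of Nfe2 after IL-15 was -2.20 with the floor at the 25th percentile and -3.50 with none. Of the members, those that fell after IL-15 numbered 2 with the floor at the 25th percentile, 2 without an intensity trend, 2 with the replicate block and 3 with 1 variance for all 3 groups. They numbered 0 with the floor at the 60th percentile, 0 without a filter on dim genes and 0 without resting NK replicates 1 and 2. Leaving out single arrays gave 0 to 1, with 0 without resting NK replicate 1. Those that rose numbered 2 without resting NK replicates 1 and 2, an alternative chosen after seeing the data, since Car2 then passed (log2 difference 0.97, adjusted p = 0.032).

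Over all genes, testing every probe set singly gave, for splenocytes, 5833 higher and 3964 lower calls against IL-15-treated NK and 5535 and 3594 against resting NK cells, and 2563 and 2441 after IL-15. Without the filter 969 rose and 677 fell after IL-15. Leaving out single arrays gave 841 to 1537 that fell, with 841 without IL-15-treated NK replicate 3 and 853 without replicate 1. With the replicate number as a block 1783 rose and 1638 fell. The deviations of same-numbered NK arrays correlated at 0.103, 0.281 and 0.066 over 11433 genes, so the numbers were not taken as pairs, and not every array correlated best with its own number. No paired analysis was possible for splenocytes because their chips could not be matched to NK replicates.

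The median share of the splenocyte level depends on the floor, which limits what can be read from dim genes. For erythroid genes it was 1.57% at the 25th percentile floor, 4.68% at the 60th and 1.45% with no floor in IL-15-treated NK cells, and 1.95%, 4.32% and 1.94% in resting NK cells. For platelet genes it was 16.3%, 19.5%, 5.48% and, with quantile normalization, 18.3% in IL-15-treated NK cells, and 11.8% with no floor in resting NK cells. A gene enters only if it is above the floor in use on all splenocyte arrays, so the set of genes changes as well. Treml1 thus entered at the 25th percentile floor and Gp9 left at the 60th.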

Other observations

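Some genes known from platelets were brighter in NK cells than in splenocytes, and were chosen after their values were seen. Gp1bb, a chain of the receptor for von Willebrand factor, was lower in splenocytes than in resting NK cells (log2 difference -1.86, limma adjusted p = 0.0068), with 361 to 504 signal units in splenocytes and 1174, 2038 and 1364 on resting NK arrays. On IL-15-treated NK arrays it was above the floor on 1 array, at 387, and was at least 6.39-fold lower than in resting NK cells (limma adjusted p = 0.00072). Gp9, whose protein sits beside that of Gp1bb in the same receptor, was below the floor on all NK arrays. Cd9, a tetraspanin of platelets, was at 4242 to 6924 in splenocytes and 7526.5 to 11019 on IL-15-treated NK and 10335 to 14109.9 on resting NK arrays.

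Of 6 markers of stem and progenitor cells, Flt3 was at least 4.09-fold and at least 3.42-fold higher in splenocytes than in IL-15-treated NK and resting NK cells, and Kit was lower, with log2 differences of -1.39 and -0.99. Cd34 was at the floor on all 10 arrays.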
